A study of Mus musculus with 6 samples.

Results

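Thrsp, the gene of thyroid hormone responsive protein (Spot14), was examined together with 9 genes of fatty acid synthesis in mouse glioblastoma stem cells in which Ggct had been knocked down. The members were every non-control probe whose transcript accession maps to Thrsp, Mlxipl, Acly, Me1, Acaca, Fasn, Elovl6, Scd1, Scd2 or Acsl3. This gave 10 genes and 18 probes among the 22907 genes named on the array. All 18 probes passed the filter of being well above background on at least 3 of 6 arrays, which left 14151 genes tested. Thrsp was selected on the measured values of these arrays, in which its signal was higher in the knockdown, so its values are a description and carry no test. The other 9 were named for their function, and the question was whether the difference in Thrsp extends to the pathway that it is known to accompany.

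The knockdown group held 3 arrays of cells stably transduced by lentivirus with a short hairpin against Ggct, and the control group held 3 arrays of the same line transduced by lentivirus with a non-target hairpin. The line came from glioblastomas that arose de novo in mice by means of the SB transposon, and it was kept as neurospheres in serum-free neural stem cell medium with B27, N2, EGF and bFGF. Both groups therefore carry a lentiviral hairpin. The titles name 1 line and 1 Ggct hairpin, so effects of that hairpin other than the loss of Ggct cannot be told apart from the knockdown. Each knockdown array shares the date in its title with 1 control array, which gives 3 pairs. The labels do not say that the samples of a group were separate cultures, and p-values therefore cover only how these arrays vary, which may be technical.

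Values are log2 signals after each array's 75th percentile was subtracted, so 0 is that percentile, and a log2 fold change is knockdown minus control. The threshold throughout is an adjusted p below 0.05 from limma, a linear model with shared variance estimates, with Benjamini-Hochberg adjustment over all genes tested. Between 54.5% and 56.8% of probes were well above background per array, no spot was saturated, and the number of arrays limits the precision. Ggct, which encodes the glutathione-cycle enzyme gamma-glutamylcyclotransferase, had signals of 0.22, 0.91 and 0.70 on the knockdown arrays, against 3.32, 3.72 and 3.70 on the control arrays. The groups did not overlap, and Ggct stood at 12.7% of control (limma adjusted p = 0.00314). Knockdown array 1 stood apart on the principal component that held 55.2% of the variance, at a score of -46.6, against -9.13 and -15.4 for the other knockdown arrays. Among stem cell markers, Vim, Nes and Sox2 were measured on all 6 arrays, Olig2 did not pass the filter, and 0 of 8 tested markers passed the threshold, with 3 at an unadjusted limma p below 0.05.

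Fatty acids are built in the cytosol from acetyl-CoA. ATP citrate lyase (Acly) makes acetyl-CoA from citrate, acetyl-CoA carboxylase (Acaca) turns it into malonyl-CoA, and fatty acid synthase (Fasn) joins these units with NADPH, which malic enzyme (Me1) helps to supply. Elovl6 and the stearoyl-CoA desaturases lengthen and desaturate the product, and acyl-CoA synthetases such as Acsl3 activate fatty acids for use. In liver and fat the genes of this pathway are induced together by SREBP-1c (Srebf1) and by the glucose-responsive factor ChREBP (Mlxipl), and Thrsp, a small nuclear protein named for its response to thyroid hormone, is induced with them.

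Thrsp was higher on every knockdown array than on every control array. Its brighter probe, A_55_P2018666, read -0.95, -2.70 and -1.84 on knockdown arrays 1 to 3, against -3.54, -4.96 and -3.86 on control arrays 1 to 3. The lowest knockdown array lay above the highest control array, and every array was well above background, with the control 2 value nearest the background at a gap of 0.33 log2 units. The means were -1.83 ± 0.87 in the knockdown and -4.12 ± 0.74 in the control (SD, n = 3 each), a log2 fold change of 2.29 or 4.89-fold, and the pairs differed by 2.59, 2.26 and 2.02. By log2 fold change Thrsp ranked 24 among the 14151 genes. The spread within each group was wide, and in both groups array 2 held the lowest value.

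The dimmer Thrsp probe, A_51_P194099, gave a second reading of the same transcript. It read -2.66, -4.43 and -3.80 on the knockdown arrays, against -5.23, -6.14 and -6.14 on the control arrays. All 3 knockdown arrays and 0 control arrays were well above background, so the control values are not measured levels. For a rough ratio, each control array was set to the lowest signal of any probe well above background on it, or to the probe's reading if greater. The knockdown was then 3.23-fold higher. That floor is not specific to this probe, so the ratio is not a strict lower bound. Across other ways of processing the arrays, and with arrays left out, the log2 fold change of the brighter probe ran from 1.24 to 2.72. The lowest came after normexp background correction with an offset of 50 intensity units, which draws differences between low signals toward 0.

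**Figure D1:**
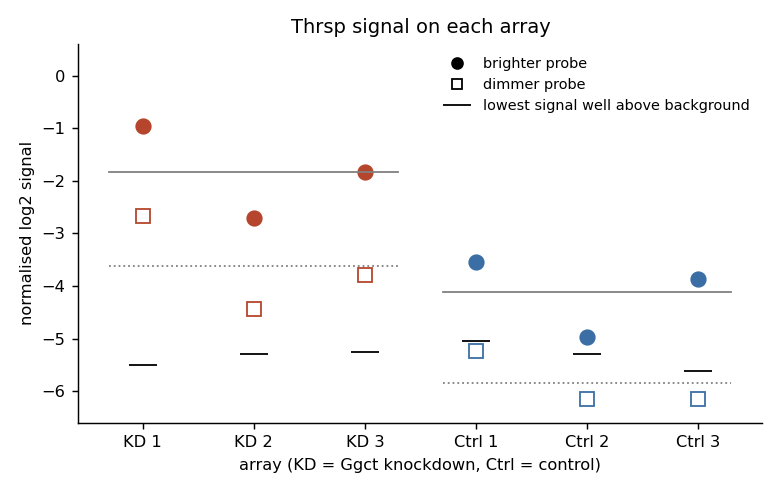
Normalised log2 signal of both Thrsp probes on each array (KD, Ggct knockdown; Ctrl, control). Filled circles are the brighter probe and open squares the dimmer one, grey lines are the group means (solid for the brighter probe, dotted for the dimmer), and black dashes are the lowest signal well above background on that array. The brighter probe lies between -2.70 and -0.95 in the knockdown and between -4.96 and -3.54 in the control, and the dimmer probe is under the dash on all 3 control arrays.

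The letters ahead of the Thrsp and Fasn starts are shown because these genes of a commonly co-induced pathway lay on opposite sides of 0. Each is the 250 bases before a RefSeq start on GRCm38.p6, with CCAAT boxes (CCAAT, or ATTGG where it lies on the other strand) in capitals. The Thrsp start is at the outer end of its RefSeq gene, whereas the Fasn start is not. The Thrsp window is chr7:97417551-97417800 on the minus strand and the Fasn window is chr11:120824548-120824797 on the minus strand.
Thrsp: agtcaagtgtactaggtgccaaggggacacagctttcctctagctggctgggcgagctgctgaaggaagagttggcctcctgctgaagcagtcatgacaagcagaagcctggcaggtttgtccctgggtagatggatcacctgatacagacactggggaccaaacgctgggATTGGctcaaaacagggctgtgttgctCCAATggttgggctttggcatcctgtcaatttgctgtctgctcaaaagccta
Fasn: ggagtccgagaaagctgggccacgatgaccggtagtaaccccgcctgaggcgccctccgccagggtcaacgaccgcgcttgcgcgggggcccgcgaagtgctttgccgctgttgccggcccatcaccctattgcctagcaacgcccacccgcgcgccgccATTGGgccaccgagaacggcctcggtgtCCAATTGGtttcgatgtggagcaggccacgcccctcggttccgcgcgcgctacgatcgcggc
Thrsp held 2 CCAAT boxes, at 79 to 75 and at 52 to 48 bases before the start. Fasn held 3, at 90 to 86, at 62 to 58 and at 59 to 55, and the last 2 overlap by 2 bases on opposite strands. The letters were searched on both strands, with CACGTG for the E-box and TCACNCCAC for the sterol regulatory element. Of 32851 RefSeq windows of the same length, 33.8% held CCAAT, 6.02% held CACGTG and 1.05% held TCACNCCAC. Neither window held either of these other letters. Windows were found for 8 of the 10 members, 10 windows in all. Besides Thrsp and Fasn, CCAAT was in 1 window each of Mlxipl, Me1 and Acsl3, CACGTG in that Mlxipl window, and TCACNCCAC in the other Mlxipl window. The Acaca window, the Me1 window with CCAAT and the Mlxipl window with TCACNCCAC also precede starts that are not at the outer end of the gene. A match describes letters and is not evidence of binding.

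The genes beside Thrsp on chromosome 7, taken as the 3 nearest tested protein-coding genes on each side in the RefSeq order (GRCm38.p6) and added after the values of Thrsp were known, had log2 fold changes nearer to 0. Ndufc2, a subunit of respiratory complex I on 1 side, had a log2 fold change of 0.04 (limma adjusted p = 0.891), and Kctd14 on the other side had -0.04 (limma adjusted p = 0.943). The 6 neighbours ran from -0.27 for Alg8 to 0.37 for Kctd21. None passed the threshold in limma, and 0 of 6 had an unadjusted p below 0.05.

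Among 12483 genes well above background on all 6 arrays, those whose 6 values followed Thrsp most closely were Bbs1, a subunit of the ciliary BBSome complex (Pearson r = 0.999), Ndnf, a secreted neurotrophic factor (0.997), F8, coagulation factor VIII (0.997), Spata6, a sperm-neck protein (0.996), and Zfp467, a zinc finger protein (0.994). Their knockdown was also higher, which follows from choosing them by likeness to Thrsp and is no separate result. The log2 fold changes were 0.47, 2.17, 0.79, 0.70 and 1.21. Ndnf was the closest in size, at -0.72, -2.38 and -1.68 on the knockdown arrays, against -3.16, -4.45 and -3.68 on the control arrays. Over the same 6 arrays the other members had r from -0.86 for Scd1 to -0.56 for Elovl6, apart from Acsl3 at 0.31. These coefficients describe 6 arrays whose groups differ, so they carry that group difference, and the points share each array's scaling.

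Among the other 9 members the largest log2 fold change above 0 was 0.05, for Acsl3. The members' values by array are plotted relative to the control mean, and each is described in the order of the pathway.

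**Figure D2:**
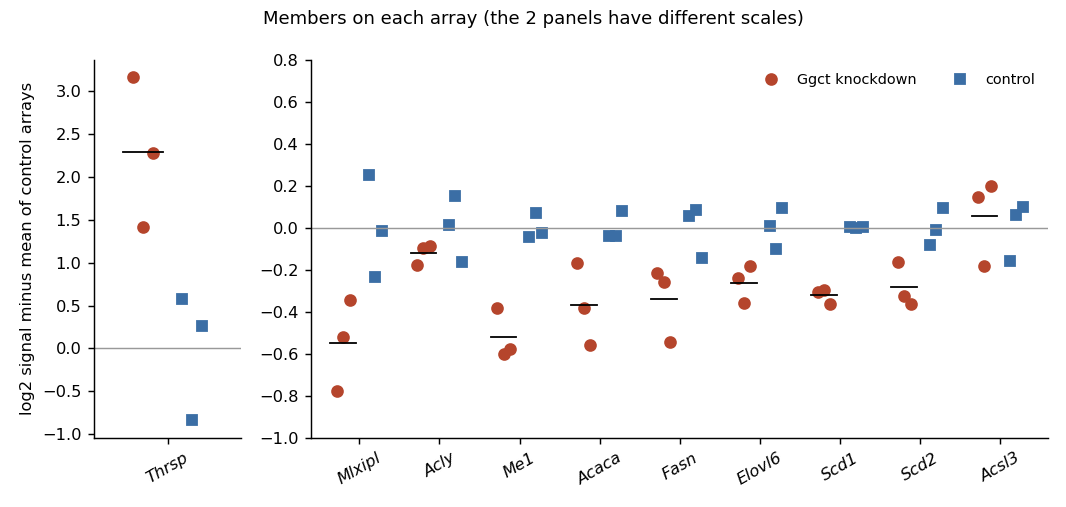
Log2 signal of the probe used for each member on each array, minus the mean of the control arrays. Circles are Ggct knockdown arrays, squares are control arrays, dashes are knockdown means, and the 2 panels have different vertical scales. Thrsp knockdown arrays lie above all control arrays, whereas in 7 of the other 9 genes they lie below all control arrays and in Acly and Acsl3 they overlap them.

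Mlxipl, the transcription factor ChREBP, read 0.77, 1.02 and 1.20 on the knockdown arrays, against 1.80, 1.31 and 1.53 on the control arrays. The knockdown was lower on all arrays, with pair 1 apart at a difference of -1.03 and the others at -0.29 and -0.33. Its log2 fold change was -0.55 ± 0.17 (SE) and did not pass the threshold (limma adjusted p = 0.0990). Mid1ip1, the paralog of Thrsp that in liver forms a complex with it and promotes the assembly of acetyl-CoA carboxylase, was lower rather than higher. It read 4.42, 4.64 and 4.44 on the knockdown arrays, against 4.90, 4.79 and 4.66 on the control arrays, which did not overlap but differed by only -0.28 (limma adjusted p = 0.217).

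Acly differed least among the carbon-supply and synthesis enzymes. It read 6.11, 6.19 and 6.20 on the knockdown arrays, against 6.30, 6.43 and 6.12 on the control arrays. Control 3 lay among the knockdown arrays, and the log2 fold change was -0.12 (limma adjusted p = 0.618). Its 95% interval reached from -0.41 to 0.17.

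Me1, the cytosolic malic enzyme that yields NADPH, was the 1 member of the 9 that passed the threshold, and it fell. It read 3.27, 3.05 and 3.07 on the knockdown arrays, against 3.61, 3.72 and 3.62 on the control arrays. The groups were separated by more than their spread, with means of 3.13 ± 0.12 in the knockdown and 3.65 ± 0.06 in the control (SD, n = 3 each). Me1 stood at 69.6% of control (limma adjusted p = 0.0422), or -0.52 ± 0.12 (SE) on the log2 scale, with all 3 pairs below 0. The call is a narrow one. With the pair as a block the limma adjusted p was 0.0905, and among the arrays left out in turn the call held only without knockdown array 1 (0.0363). The second Me1 probe had a log2 fold change of -0.38, and its arrays overlapped.

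Acaca, the carboxylase that commits acetyl-CoA to fatty acids, read 4.39, 4.18 and 4.002 on the knockdown arrays, against 4.52, 4.52 and 4.64 on the control arrays. The groups did not overlap, although pair 1 differed by only -0.13. Its log2 fold change of -0.37 ± 0.14 (SE) did not pass (limma adjusted p = 0.142). Fasn, the multifunctional synthase, read 7.13, 7.09 and 6.80 on the knockdown arrays, against 7.40, 7.43 and 7.20 on the control arrays. Its knockdown arrays were all below the control arrays at 79.0% of the control level, or -0.34 ± 0.14 (SE) on the log2 scale, and this difference did not pass either (limma adjusted p = 0.182). The 95% interval for Fasn ran from -0.66 to -0.02.

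Elovl6, which extends palmitate to stearate, read 3.17, 3.05 and 3.22 on the knockdown arrays, against 3.42, 3.30 and 3.50 on the control arrays. The pairs differed by a near-constant -0.25, -0.26 and -0.28, and the log2 fold change of -0.26 did not pass (limma adjusted p = 0.225). Scd1, the desaturase best known from liver and fat, had the smallest spread in the control, at 3.07, 3.08 and 3.01 on the knockdown arrays, against 3.38, 3.37 and 3.38 on the control arrays. It was lower in all 3 pairs, by -0.32 ± 0.11 (SE) on the log2 scale, and did not pass (limma adjusted p = 0.109). Scd2, the desaturase that prevails in brain, read 6.64, 6.47 and 6.44 on the knockdown arrays, against 6.72, 6.79 and 6.89 on the control arrays. It did not overlap between the groups, and its log2 fold change was -0.28 (limma adjusted p = 0.192). Scd1 and Scd2 have similar sequences, and signal from 1 on the probe of the other was not tested.

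Acsl3, an acyl-CoA synthetase of the endoplasmic reticulum and lipid droplets, was the 1 member of the 9 above 0. It read 1.61, 1.28 and 1.66 on the knockdown arrays, against 1.30, 1.52 and 1.56 on the control arrays. The groups overlapped, and the log2 fold change of 0.05 (limma adjusted p = 0.871) had a 95% interval from -0.29 to 0.40. Its second probe read lower, at -0.19.

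Over the 9 genes, then, 8 had a log2 fold change below 0, and over all genes 47.7% did. In 7 of the 9 all knockdown arrays lay below all control arrays, which was so for 14.6% of all genes. This count was chosen after the values were seen. The threshold was passed by 1 of 9, Me1, which fell, and among all genes 2.84% passed lower, 4.57% passed higher and 7.41% passed in either direction. Of the 9, 6 had an unadjusted limma p below 0.05. The median of the 9 was -0.32, or 79.9% of control, and that of all genes was 0.02. Of 27 pair differences, 24 were below 0. The 9 genes were named with results of these arrays known, so these counts describe them and are no test of the pathway.

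On the probe used for each gene, the highest upper 95% bound among the 9 was 0.40 on the log2 scale, or 1.32-fold, for Acsl3, and Acly was next at 0.17. Dimmer further probes had wider intervals, with upper bounds of 0.71 for Acsl3, 0.64 for Acaca and 0.59 for Acly on the log2 scale, or 1.64-fold, 1.56-fold and 1.51-fold. For the 6 members Mlxipl, Me1, Acaca, Fasn, Scd1 and Scd2 the interval lay below 0 before adjustment for the number of genes. Adjusted p-values of the 8 that did not pass ran from 0.0990 to 0.871. Each of these 8 differed by less than 1.5-fold. On simulated data the fit recovered only 15.1% of differences of 1.5-fold, so not passing does not show that a member was unchanged.

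**Figure D3:**
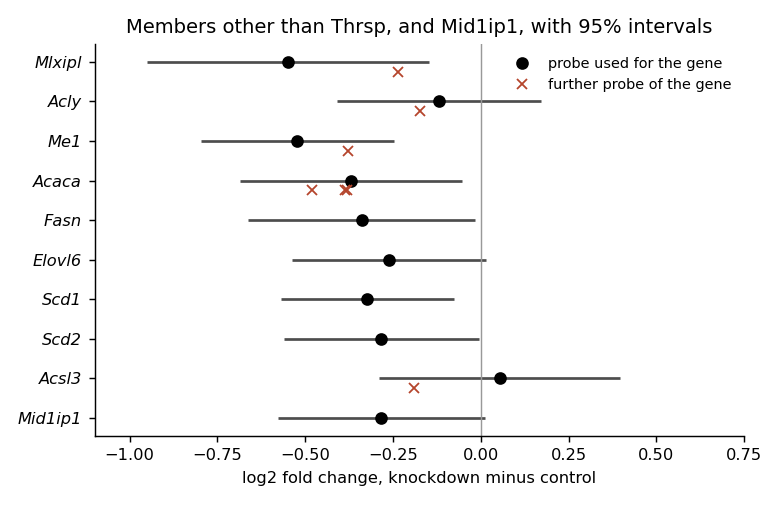
Log2 fold change (knockdown minus control) of the probe used for each member other than Thrsp and of the Thrsp paralog Mid1ip1, with its unadjusted 95% interval from limma. Crosses are further probes of the same gene. All points lie between -0.55 and 0.05, and only the intervals of Acly, Elovl6, Acsl3 and Mid1ip1 reach 0.

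Of 7 further probes of the 9 members, 7 were below 0, including that of Acsl3, whose brighter probe was above 0. They had log2 fold changes from -0.48 to -0.17, and 0 passed the threshold in a limma fit over 20917 probes, in which 3.83% passed; 1 had an unadjusted p below 0.05. That probe, A_52_P318040 of Acaca, read 0.26, 0.52 and 0.33 on the knockdown arrays, against 0.78, 0.78 and 0.69 on the control arrays, with no overlap. In the 5 dimmest of the 7, low values went with the brightest arrays. Knockdown array 1 was the lowest knockdown array in 4 of the 5, and control array 3 the lowest control array in 4 of the 5. Those arrays had the highest 75th percentile of signal, 1201 and 1373 intensity units over spots, against 812 to 917 on the other 4. The part of array brightness in these values was not tested. With both arrays left out, a choice made after the values were seen, the arrays of 8 members of the 9 did not overlap. Leaving arrays out can only raise that count, and the share of all genes was not computed for it. In that fit 1 member passed, and 1521 of all 14151 genes did.

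**Figure D4:**
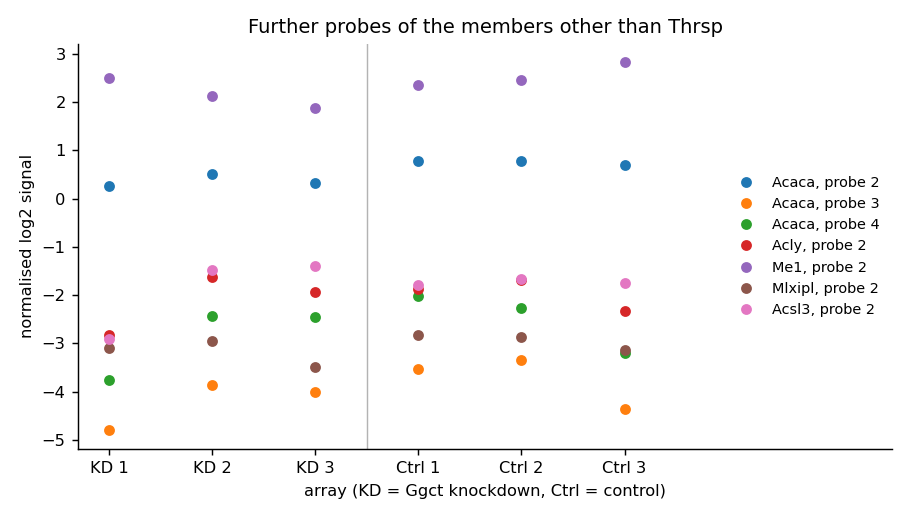
Normalised log2 signal of the 7 further probes of members other than Thrsp on each array (KD, Ggct knockdown; Ctrl, control), with 1 colour per probe. For 4 of the 5 dimmest probes the lowest knockdown point is array 1, and for 4 of them the lowest control point is array 3.

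Around the members, 118 other genes were read from the same fit, 108 in 8 lists of lipid metabolism and 10 in a list of thyroid hormone response in brain. Of 107 that were tested, 12 passed the threshold, 6 higher and 6 lower, and the median log2 fold change was 0.05. Of the 100 tested lipid genes, 5 passed higher and 5 lower. Among all genes 4.57% passed higher, 2.84% lower and 7.41% in either direction, and the lists' counts are descriptions. With the pair as a block only Fabp3, a lipid gene, and Hr and Mbp of the thyroid hormone list passed (limma adjusted p = 0.0275, 0.0331 and 0.0327). Each of the 12 kept its sign under all 18 alternatives and passed under 5 to 10 of them. The groups of each of the 12 did not overlap, so leaving arrays out could not turn a sign. The pair as a block leaves the log2 fold change as it is, so much of this stability was fixed in advance.

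Among 16 regulators of lipogenesis 1 fell and 0 rose in limma, with 3 at an unadjusted p below 0.05. The gene that fell was Srebf2, the SREBP best known for cholesterol synthesis, at 0.08, 0.23 and 0.03 on the knockdown arrays, against 1.004, 0.85 and 0.50 on the control arrays. Its groups did not overlap and its log2 fold change was -0.67 (limma adjusted p = 0.0462). Srebf1, the SREBP gene of fatty acid synthesis, had overlapping arrays and a log2 fold change of 0.16 (limma adjusted p = 0.672). It is named, like Ppargc1b, Nr1h3, Fads2, Thra and Slc27a1, after its values were seen. Ppargc1b, a coactivator of SREBPs in liver, had -0.61 (limma adjusted p = 0.0616), and Nr1h3, the oxysterol receptor LXR alpha that induces Srebf1, had 0.46 (0.140).

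In the supply and cofactor list 2 of 15 tested genes rose and 1 fell. Pdk2, a kinase that inhibits pyruvate dehydrogenase, was 2.20-fold higher (limma adjusted p = 0.0375). Mlycd, the decarboxylase that breaks malonyl-CoA down, read 2.03, 2.03 and 1.98 on the knockdown arrays, against 1.52, 1.46 and 1.24 on the control arrays, without overlap (limma adjusted p = 0.0310). A dimmer second Mlycd probe had a log2 fold change of 0.45, and its arrays overlapped (limma adjusted p = 0.491 in the fit over probes). Me2, the mitochondrial relative of Me1, read 2.25, 2.36 and 2.35 on the knockdown arrays, against 2.79, 3.11 and 3.46 on the control arrays. It fell by 0.80 on the log2 scale (limma adjusted p = 0.0395), so both Me1 and Me2 were lower.

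In the elongation and desaturation list 1 of 15 tested genes fell and 0 rose in limma, with 4 at an unadjusted p below 0.05. Fads3, a member of the fatty acid desaturase family, fell to 52.6% of control (limma adjusted p = 0.0462), and Fads2, the delta-6 desaturase, had -0.48 without passing (0.0720). None of 6 mitochondrial fatty acid synthesis genes and none of 9 other acyl-CoA synthetases passed in limma, with 2 at an unadjusted p below 0.05 in each list. The largest difference among these synthetases was that of Slc27a1, a fatty acid transport protein, at 0.73 (limma adjusted p = 0.114).

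Genes of storage, use and uptake of fatty acids did not share 1 direction. Plin2, the lipid droplet coat protein, was the 1 of 15 storage genes that rose, at 5.83, 5.85 and 5.73 on the knockdown arrays, against 5.27, 5.42 and 5.20 on the control arrays (1.42-fold, limma adjusted p = 0.0448). Acadm, the medium-chain dehydrogenase of beta-oxidation, was the 1 of 17 oxidation genes that rose (1.46-fold, limma adjusted p = 0.0484). The oxidation list had 13 of 17 genes above 0 and a median of 0.19. Fabp3, a cytosolic fatty acid binding protein, rose 2.51-fold (limma adjusted p = 0.0249). Vldlr, the receptor of very low density lipoprotein, fell to 62.2% of control (limma adjusted p = 0.0377). Further probes of Plin2, Vldlr and Fabp3 had the same signs, at 0.42, -0.35 and 1.18, but did not pass. Those of Plin2 and Vldlr overlapped between the groups and that of Fabp3 did not (limma adjusted p = 0.523, 0.513 and 0.0576).

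Thrsp is named for thyroid hormone, and of 7 tested genes known to respond to that hormone in brain or to carry its signal, 1 rose and 1 fell. Hr, the hairless corepressor induced by thyroid hormone, read -3.37, -3.11 and -3.85 on the knockdown arrays, against -2.30, -2.30 and -2.68 on the control arrays. It fell to 49.4% of control without overlap (limma adjusted p = 0.0333). Mbp, myelin basic protein, was 2.02-fold higher on its only probe that passed the filter (limma adjusted p = 0.0247). The further Mbp probes, A_52_P329451 and A_55_P2889696, were well above background on 0 arrays and give no second reading. The receptor gene Thrb and the deiodinases Dio2 and Dio3 did not pass the filter. The 3 probes of Thra, the other receptor gene, had log2 fold changes of 0.19, 0.77 and 0.88, and none passed (limma adjusted p = 0.338 for the gene and 0.0580 and 0.140 for the further probes).

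**Figure D5:**
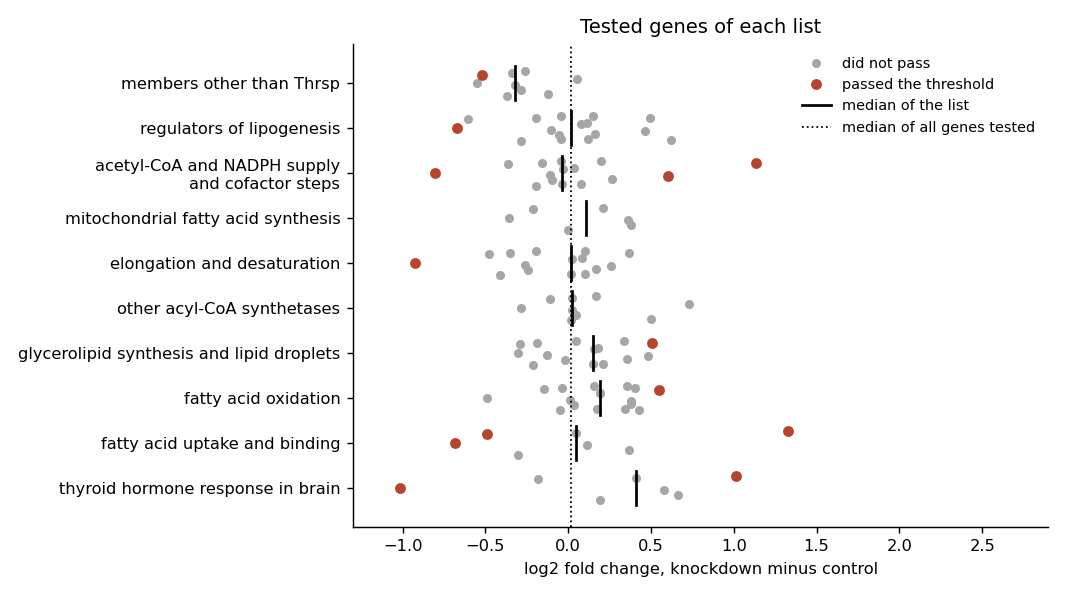
Log2 fold change (knockdown minus control) of each tested gene in the members other than Thrsp and in the 9 lists of related genes, with points spread vertically for legibility. Red points passed the limma threshold, black bars are list medians and the dotted line is the median of all genes tested, 0.02. The members' median lies at -0.32, and the lists' medians lie between -0.04 and 0.41.

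Markers of other cell types were read beside Thrsp, since Thrsp is best known from fat and liver. Of 8 adipocyte markers, Adipoq, Plin1, Cidec, Cfd and Retn did not pass the filter, and 0 of the other 3 passed the threshold in limma, with 1 at an unadjusted p below 0.05. Of 6 tested astrocyte markers 3 rose, Agt, S100b and Slc1a3, where 4.57% of all genes passed higher. Their log2 fold changes were 2.68, 1.01 and 0.86, whereas Gfap (-0.75) and Aldoc (-0.22) lay below 0 without passing. The mean log2 signal of the 6 was -2.69 to -2.19 on the knockdown arrays, against -3.61 to -2.95 on the control arrays. Mbp and Cnp rose among 4 oligodendrocyte markers tested, whose mean was -1.76 to -1.67 on the knockdown arrays, against -2.10 to -1.89 on the control arrays. Pdgfra, the 1 tested marker of 4 for oligodendrocyte progenitors, fell by 0.90 on the log2 scale. Markers of neurons, microglia, endothelium and fibroblasts had no gene past the threshold, with 1, 0, 0 and 1 at an unadjusted limma p below 0.05, and Aif1, Cx3cr1, Ptprc and P2ry12 of the microglial list did not pass the filter. The part of these marker differences in the level of Thrsp or of the other members was not tested. In bulk RNA a change in the share of cells and a change of RNA per cell cannot be told apart.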

How the data were processed

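RNA of 3 knockdown and 3 control samples was hybridised with Cy3 to one-colour Agilent arrays. The scanner files hold spot intensity values that Agilent Feature Extraction 11.0.1.1 had background-corrected, per the file headers, on a design annotated on mm9. The deposited value table holds log2 values. In each column all of 56593 probes equalled the log2 processed signal minus 1 constant (9.05 to 9.75) within 0.01, with column medians from -4.47 to -4.22 and no centring of genes. All arrays were on 1 slide with 1 scan date.

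Outlier spots were dropped, spots of a probe averaged as log2, and each array's 75th percentile subtracted. Accessions without version matched a RefSeq gene table (GRCm38.p6) for 32986 of 56593 probes (58.3%). Probes well above background on at least 3 arrays were kept, and the brightest stood for its gene. Knockdown was compared with control over 14151 genes by limma 3.58.1 (lmFit, eBayes, two-sided) in R 4.3.3, without a block. Benjamini-Hochberg adjustment and a threshold of 0.05 were used. The fit was tried on simulated data with known differences. Its recovery was 15.1% for differences of 1.5-fold, 60.4% for 2-fold and 91.7% for 4-fold. Python 3.11.15, pandas 2.3.3 and matplotlib 3.10.9 did the rest.

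Groups and pairs came from the titles, whose shared dates mark a shared day. As a check, deviations of paired arrays from their group means correlated at -0.025, 0.546 and -0.196 across genes. Arrays not paired by date ran from -0.517 (knockdown 1 with control 2) to 0.407 (knockdown 1 with control 3). The check therefore did not single out the pairs as a set, and they rest on the titles. Alternatives were other backgrounds, scalings, filters and probe rules, the deposited table, the pair as a block and left-out arrays. The normexp alternative used the median signal column in place of the planned mean, which the files do not carry. It added an offset of 50 intensity units. Members and lists were chosen with earlier results of these data known. Named were all members with every probe, Ggct, Mid1ip1, up to 4 passing genes per list and direction, and the 5 genes most correlated with Thrsp. A result of a single related gene is not reported here.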

Additional observations from a re-analysis of the deposited data

How the results depend on the processing

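Most calls depended on the processing or on single arrays. The directions of the members mostly stayed, but many of the alternatives could not have changed them. The 1048 genes changed became 357 without a filter on dim probes, 558 with the pair as a replicate block (394 higher and 164 lower, 487 shared) and 0 to 840 with an array or a pair left out. By array the count was 840, 626 and 21 without knockdown arrays 1, 2 and 3, and 14, 42 and 424 without control arrays 1, 2 and 3. By pair it was 343, 81 and 0, and without pair 3 limma still gave 2796 genes an unadjusted p below 0.05 while the adjusted p of Ggct was 0.125. The count of the 9 members was 1 and became 0 without the filter, with the mean of a gene's probes and with the pair as a replicate block (4, 5 and 4 members at an unadjusted limma p below 0.05), and 0 to 1 with an array or pair left out (1 to 4 unadjusted where it was 0). The adjusted p of Me1 ran from 0.0244 to 0.384, and was 0.120, 0.130, 0.118, 0.162 and 0.0844 without knockdown arrays 2 and 3 and control arrays 1, 2 and 3. The 12 genes of the lipid and thyroid hormone lists became 0 without the filter (25 unadjusted), 3 with the pair as a replicate block, and 0 to 5 with arrays or pairs left out, with 13 to 33 unadjusted where it was 0 (5, 4 and 0 without knockdown arrays 1 to 3, and 0, 0 and 2 without control arrays 1 to 3). The block changed no call of another member. The cause was not tested. Acsl3 turned to -0.069 with the mean of its probes, and ran from -0.071 (without pair 1) to 0.202 with arrays or pairs left out, also below 0 at -0.019 without knockdown array 3 and -0.025 without control array 1. The other 8 members stayed below 0 and Thrsp above 0 under every alternative tried, and 6 to 8 of the 9 members had arrays that did not overlap. Leaving arrays out cannot make separated groups overlap, so in those alternatives this last count could not fall. For the same reason they could not turn the sign of Thrsp or of the members whose arrays did not overlap. The filters and the pair as a block left the members' log2 fold changes as they were. The directions of these separated genes could therefore have changed only in the remaining alternatives. The share of all genes without overlap was not computed for the alternatives. For Thrsp the smallest value was 1.24 with normexp, which was 2.37-fold, against 4.89-fold. The offset of 50 intensity units in that alternative draws differences between low signals toward 0. Its part in this value was not tested. Without knockdown array 1 and control array 3, chosen after seeing the data, 1521 genes, 1 member and 13 related genes passed. The median over all genes moved by less than 0.05 under every alternative. A slide block was not run because all arrays share 1 slide. The dimmer Thrsp probe was not well above background on any control array, and small signals limit the dimmest further probes.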
